A study of Aedes aegypti with 20 samples.

Results

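In 167 genes of the yellow fever mosquito Aedes aegypti the transcript that held most of the gene's counts in pedicels was not the one that held most of them in heads. These genes were found among 19804 gene IDs. Of the 5662 IDs with a mean of at least 10 CPM (counts scaled to the library total) in both tissues, 2727 had 2 or more listed transcripts, and the 167 were 6.12% of those. A gene was taken where the transcript with the largest summed count differed between the 10 pedicel and the 10 head libraries and held at least 50% of the gene's counts in its own tissue. The transcript with the most counts in pedicels is called the pedicel transcript here, and the one with the most counts in heads the head transcript. The share of each is its percent of the gene's estimated counts. Another 388 genes also had different leading transcripts, but at least 1 of the 2 held under 50%. The genes were chosen by these measured shares in pedicels and heads, so the differences between the tissues given for them are a description and carry no test.

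One gene can give several messenger RNAs through different start sites, splicing of different exons or different ends. The choice can alter the protein or the untranslated regions, and neurons, muscle and sensory cells are known for tissue-specific choices of this kind. The pedicel is the antennal segment that houses Johnston's organ, whose stretch-sensitive neurons respond to sound-driven movement of the flagellum. In mosquitoes the male organ is larger than the female one and is used to hear flying females.

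The 4 groups were male pedicels, female pedicels, male heads and female heads of the Liverpool strain, with 5 libraries each and 20 in all. Males were virgin and females had not fed on blood. All were held for 2 days in an incubator and frozen at zeitgeber time 12, and their age was not given in the sources used here. Column names of the deposited table call the pedicel after Johnston's organ and the head after the brain, while the labels say pedicel and head. RNA came from whole homogenised tissue, which mixes many cell types.

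Estimated counts per library summed to between 5060010 and 9404311. Of the gene IDs, 0 matched a name in the gene table at hand, so genes and transcripts are given by ID with no function, and the tissue labels could not be set against marker genes. A set of 50 genes typical of the head, each summed over its transcripts, is called the head-typical genes here. Their level, in percent of their mean level in heads, was 5.58, 36.6, 4.34, 4.77 and 5.64% in male pedicels 1 to 5, and 67.7, 34.1, 44.4, 59.2 and 67.8% in female pedicels 1 to 5. Male pedicel 2 thus stood apart from the other 4 male pedicels, and all female pedicels lay near its level or above it. In the 10 heads the level was 94.5 to 108%. The 50 were picked for the lowest value in any pedicel relative to heads. Libraries that set these minima thus read low by the choice itself. Transcripts listed with the same values under another gene ID (identical copies) held over 20% of the counts in male pedicels 3 and 4 and in female pedicels 3, 4 and 5 (21.3 to 35.2%), and 2.51 to 3.72% in heads. None of the switching genes (0 of 167) held such a transcript. In whole tissue, fewer cells of a type and less RNA per cell cannot be told apart, and the labels do not say whether libraries of 1 group stem from different animals, so p-values measure only the spread between these libraries.

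Most switches were narrow. The pedicel transcript held a median of 56.8% of the gene's counts in pedicels (50 to 87.4%) and 38% in heads (3.71 to 49.6%). The head transcript held a median of 38.7% in pedicels (5.46 to 49.9%) and 57.5% in heads (50.4 to 91.1%). In 99 genes at least 1 of the 2 leading transcripts held under 55% in its own tissue, and in 23 both held 60% or more. The swing, defined as the smaller of the gain of the pedicel transcript in pedicels and the gain of the head transcript in heads, had a median of 19.6 percentage points and ran between 0.56 and 56.4. It was at least 10 points in 138 genes, at least 20 in 82, at least 30 in 35, at least 40 in 11 and at least 50 in 4.

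The limits cut through a continuum. Just inside the 50% limit were AAEL019771, with 50.01% for its pedicel transcript in pedicels, and AAEL006782 with 50.08%. Just outside it were AAEL007526 with 49.94% and AAEL000266 with 49.92%. At the limit of 10 CPM the nearest gene inside was AAEL019878, with a lower tissue mean of 10.21 CPM on library totals, and the nearest outside was AAEL005582 with 9.988 CPM.

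Switching genes had few transcripts: 105 of them listed 2, 32 listed 3 and 30 listed 4 or more, with 9 at most. Those with 2 made up 62.9% of the switching genes and 33% of the other 2560 genes with several transcripts. With only 2 transcripts the larger one holds at least 50% by construction, so the rule itself favours such genes.

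Read library by library, the order of the transcripts was rarely the same throughout a tissue. The pedicel transcript had the largest count in a median of 7 of the 10 pedicels, with a minimum of 4, and the head transcript had the largest count in a median of 7 of the 10 heads, with a minimum of 3. In 11 genes the pedicel transcript led in all 10 pedicels, and in 24 genes the head transcript led in all 10 heads. Both held in AAEL011088 alone. In 6 genes each transcript led in at least 9 of the 10 libraries of its tissue, namely AAEL001321, AAEL001496, AAEL002527, AAEL005524, AAEL011088 and AAEL012114, and 20 genes reached at least 8 and 8. In the bubble plot of libraries led by each transcript, the genes spread over the upper right with a single gene in its corner.

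**Figure D1:**
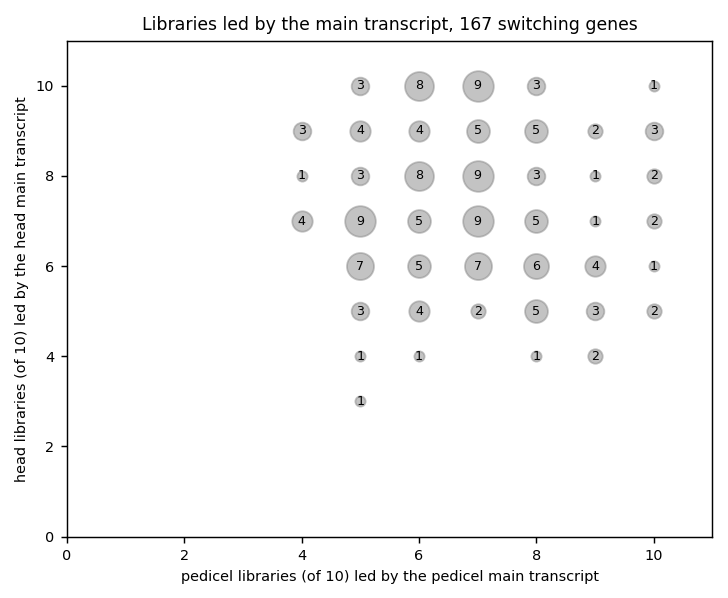
Number of pedicel libraries (of 10) in which the pedicel transcript had the largest count, against the number of head libraries (of 10) in which the head transcript had it, for the 167 switching genes. The number in each circle, which also sets its area, counts genes, and only 1 gene lies at 10 and 10.

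Shares of both transcripts were without any overlap between the 10 pedicels and the 10 heads in 6 genes (AAEL001378, AAEL001496, AAEL004212, AAEL006647, AAEL007444 and AAEL011088), which is 3.59% of the switching genes. Taking in each gene only the transcript with the most counts over all libraries, 8 switching genes had no overlap (4.79%), against 31 of all 2727 genes with several transcripts (1.14%). The rule used this contrast, so nothing is read from the gap. Leaving out male pedicel 2 left the 6 genes at 6. Without the 5 pedicels that carried over 20% of identical copies, 17 of the 167 genes had no overlap of both shares, over 5 pedicels instead of 10. By the transcript with the most counts, 21 of the 167 genes (12.6%) and 5.1% of all 2727 genes then had no overlap, and nothing is read from that gap either. The rule itself then gave 207 genes, of which 140 were among the 167.

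The clearest switch was that of AAEL011088, which lists 3 transcripts. Its pedicel transcript RC held 68.4, 69.2, 60, 65.7 and 61.9% of the counts in male pedicels and 62.4, 56.8, 52.1, 56.4 and 49.8% in female pedicels, against 7.38, 12.6, 3.25e-06, 0 and 8.23% in male heads and 20.6, 13.2, 2.26, 2.7e-07 and 7.04% in female heads. Every pedicel lay above every head, and male pedicels were mostly above female ones. The head transcript RB held 3.23 ± 1.73% in male and 14.8 ± 1.27% in female pedicels, against 80.8 ± 5.16% in male and 78.5 ± 7.79% in female heads (SD, n = 5 each). In levels, RC was at 350 ± 76.8 CPM in male and 104 ± 23.9 CPM in female pedicels, against 3.14 ± 3.32 CPM in male and 4.63 ± 4.29 CPM in female heads. RB was at 16 ± 3.95 CPM in male and 27.5 ± 3.99 CPM in female pedicels, against 44.0 ± 4.86 CPM in male and 43.0 ± 5.88 CPM in female heads. The gene as a whole was therefore at a higher level in pedicels, while 1 of its transcripts was at a lower one.

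AAEL006647 has 2 transcripts and a swing of 54.49 points. RB held 57.3, 38.9, 52.1, 71.0 and 47.4% in male pedicels and 70.3, 79.5, 73.4, 75.2 and 81.1% in female pedicels, against 3.40, 9.71, 8.78, 3.39 and 2.35% in male heads and 35.9, 21.2, 18.9, 18.1 and 16% in female heads. All pedicels were above all heads, but RB was the smaller transcript in male pedicels 2 and 5, and female head 1 came within a few points of male pedicel 2.

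AAEL007444 had steady shares within groups. Its transcript RB held 77.5, 77.5, 81.2, 75.5 and 76.0% in male pedicels and 80, 82.9, 76.8, 67.5 and 68.2% in female pedicels, against 34.4, 43.6, 34.6, 39.7 and 48.3% in male heads and 57.1, 53.4, 53.9, 57.0 and 54.5% in female heads. All 10 pedicels lay above all 10 heads, but RB was also the larger transcript in every female head, so the leading transcript differed between the tissues in males and not in females.

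AAEL001496 had narrower gaps. Its transcript RB held 73.5, 60.2, 69.7, 65.4 and 77.0% in male pedicels and 54.3, 62.1, 54.6, 58.4 and 61.7% in female pedicels, against 41.0, 40.4, 37.5, 40.8 and 38.9% in male heads and 48.6, 43.1, 43.9, 50.7 and 49.8% in female heads. The lowest pedicel stood a few points above the highest head. The gene's own level was 38.9 ± 3.53 CPM in male and 38.1 ± 8.52 CPM in female pedicels, against 36.0 ± 2.73 CPM in male and 36.0 ± 2.21 CPM in female heads (SD over 5 libraries a group).

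AAEL004212 held the largest pedicel share of all switching genes, 87.35% over the summed counts. By library its RA was at 94.0, 76.6, 89.6, 96.5 and 92.4% in male pedicels and 65.6, 87.1, 100, 90.0 and 94.4% in female pedicels, against 45.5, 42.6, 50.9, 41.1 and 22.5% in male heads and 58.4, 38, 49.3, 53.8 and 50.6% in female heads. RA led in every pedicel, and the heads straddled the middle.

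In AAEL001378, RB held 53.8 ± 10.5% in male and 56.6 ± 11.4% in female pedicels, against 32.1 ± 6.45% in male and 30.2 ± 2.73% in female heads. Its lowest pedicel, at 39.3%, stood just above its highest head, at 37.5%.

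**Figure D2:**
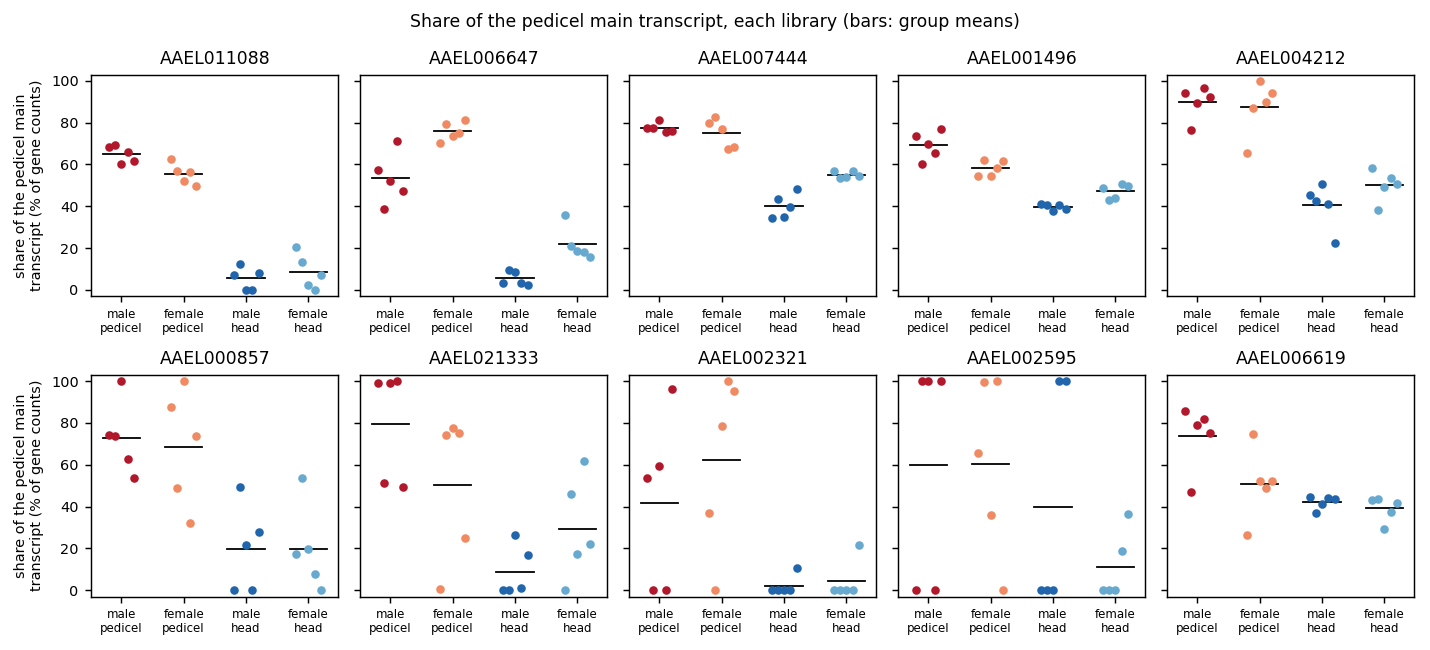
Share of the pedicel transcript in each library (points, % of the gene's estimated counts) with group means (bars), for 5 genes whose shares did not overlap between the tissues (top) and 5 genes whose shares did (bottom). In the top row every pedicel lies above every head, while AAEL002321 and AAEL002595 hold libraries at 0 and at 100% in female pedicels, and AAEL000857 and AAEL021333 range widely within groups.

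Large pooled swings did not always come with steady shares. After AAEL011088 and AAEL006647 the next largest swings were those of AAEL000857 (51.79 points), AAEL021333 (50.12), AAEL002321 (47.85) and AAEL002595 (47.74). AAEL000857 had its RB at 74.4, 74.0, 100, 62.7 and 53.9% in male pedicels and 87.5, 49.0, 100, 32 and 73.5% in female pedicels, against 0.00297, 49.2, 21.5, 0.000183 and 28.1% in male heads and 17.5, 53.9, 19.5, 7.85 and 9.04e-07% in female heads. Pedicels were mostly higher, and the tissues overlapped, with female pedicels 2 and 4 low and the male and female heads numbered 2 high.

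AAEL021333 had its RB at 99.2, 51.1, 99, 100 and 49.3% in male pedicels and 0.533, 74.0, 77.4, 75.4 and 25.2% in female pedicels, against 0.00821, 0.00109, 26.3, 0.912 and 17.1% in male heads and 0.178, 45.9, 17.2, 61.8 and 22.3% in female heads. Female pedicel 1 lay among the lowest heads. In males alone the tissues did not overlap.

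AAEL002321 had RC at 53.6, 0, 59.4, 0 and 96.0% in male pedicels and 37.1, 0, 78.5, 100 and 95.1% in female pedicels, against 0, 0, 4.49e-08, 0 and 10.8% in male heads and 0, 0, 0.00017, 3.63e-07 and 21.4% in female heads. Heads were near 0 save the 2 numbered 5, and 3 of the 10 pedicels were at 0.

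AAEL002595 was split between extremes. RA was at 5.03e-07, 100, 100, 2.63e-07 and 100% in male pedicels and 65.5, 99.5, 35.9, 100 and 0% in female pedicels, against 1.23e-07, 2.77e-07, 1.59e-07, 99.8 and 100% in male heads and 2.71e-06, 0, 9.44e-07, 18.6 and 36.4% in female heads. In male pedicels and male heads each library gave nearly all counts to either RA or RB, so that the groups overlapped over the whole range.

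Such all-or-none libraries were common. Among libraries with at least 50 counts for a switching gene, the pedicel transcript held at most 1% or at least 99% in 167 of 1589 pedicel values and in 147 of 1659 head values, and 77 genes had at least 1 such library. Counted on the transcript with the most counts over all libraries, 9.42% of the switching genes' values were all-or-none. In the other genes with several transcripts it was 15.4%. Among those others the count can take in genes in which the same transcript held at least 99% in every library. The rule keeps such genes out of the switching genes. These percentages are thus not a like measure, and nothing is read from the gap between them. The spread between libraries of a group was wide: the median SD of the share over switching genes was 16.8 points in male and 20.4 points in female pedicels, and 14.5 points in male and 11.8 points in female heads, and over the other genes 12.2, 14.4, 9.32 and 8.54 points in the same order. Set against binomial sampling of the counts, the median ratio of chi-square to its degrees of freedom, again in that order of groups, was 33.7, 39.1, 30.7 and 27.0 in the switching genes. In the others it was 27.1, 28.0, 23.0 and 20.8, where sampling alone gives about 1. The rule chose the switching genes by these same shares. Their wider spread is thus not free of the choice, and nothing is read from the gap to the other genes. The counts behind these shares were mostly fractional: 4.29% of the values above 0 were whole numbers (within 1e-06) in switching genes and 6.09% in the other genes with several transcripts, against 83.3% in the 2935 genes with 1 transcript. Median gene levels were 43.1 CPM in switching genes and 51.0 CPM in the others. How reads were divided between transcripts of a gene was not given in the sources used here, and its part in the spread was not tested.

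In most switching genes the pedicel transcript was at a higher level in pedicels and the head transcript at a lower one. The pedicel transcript had a higher mean level in pedicels than in heads in 137 genes, and the head transcript had a lower one in 144. Over all switching genes the median log2 ratio of pedicels over heads was 0.57 for the pedicel transcript and -0.76 for the head transcript. Both were so in 114 genes. In 30 genes both transcripts had lower means in pedicels and in 23 both had higher ones, so that there the switch lay in unequal change. The rule makes each transcript gain share in its own tissue, and 105 genes list only 2 transcripts. Opposite changes are thus favoured by the choice of genes, and the counts are a description.

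Sex was not a criterion of the rule, and the shares were next compared between males and females. The rule summed counts over both sexes, and it held in males alone in 129 genes and in females alone in 85. Differences between the sexes in these shares are thus not free of the choice of genes. The median over the 167 genes of the pedicel transcript's share was 61.4, 60.2, 66.3, 65.7 and 55.6% in male pedicels 1 to 5 and 65.6, 61.6, 53.1, 50.3 and 49.5% in female pedicels 1 to 5. In heads it was 33.0, 40.4, 34.9, 33.3 and 31.4% in males and 42.5, 39.2, 35.9, 39.2 and 44.3% in females. Group means were thus 61.8 ± 4.38% in male and 56.0 ± 7.19% in female pedicels, and 34.6 ± 3.47% in male and 40.2 ± 3.26% in female heads (SD, n = 5 each), and the sexes overlapped in both tissues. The pedicel transcript led in 117 to 133 of the 167 genes in male pedicels and in 84 to 121 in female pedicels, and in 22 to 56 in male and 38 to 62 in female heads. Male pedicel 2, with its higher level of head-typical genes, lay inside the range of the other male pedicels. The 3 female pedicels below 55% (3, 4 and 5) are those with over 20% of identical copies, while male pedicels 3 and 4, also over 20%, had the highest medians of all pedicels. Whether the level of head-typical genes or identical copies bear on these shares was not tested.

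**Figure D3:**
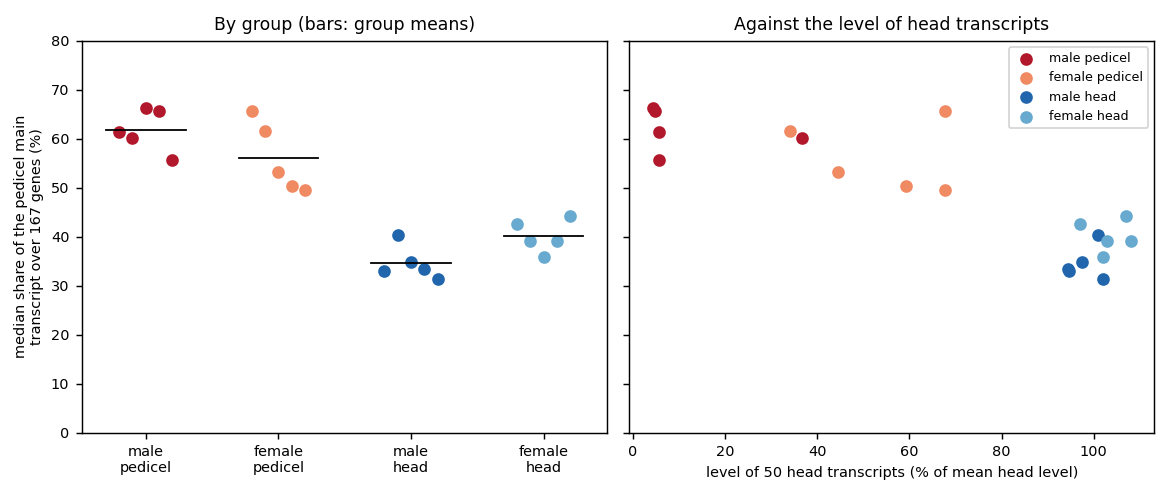
Median over the 167 switching genes of the pedicel transcript's share (%) in each library, by group with group means as bars (left), and against the level of the 50 head-typical genes (labelled head transcripts) in the same library, in percent of the mean of heads (right). Pedicels lie at 49.5 to 66.3% and heads at 31.4 to 44.3%, a gap that the choice of genes fixes. Male pedicel 2 sits at 36.6% on the horizontal axis, apart from the other male pedicels at 4.34 to 5.64%. The 50 head-typical genes were picked for low minima in pedicels, which favours such low values.

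In these genes, chosen over both sexes together, the gap between the tissues was wider in males. The pedicel transcript's mean share in pedicels minus that in heads had a median of 25.3 points in males and 14.5 points in females, and was above 0 in 164 and 147 genes. For the head transcript, the share in heads minus that in pedicels had a median of 24.6 points in males and 15.0 points in females. Shares of the pedicel transcript did not overlap between the tissues in 39 genes in males and in 13 in females. In the background of 2727 genes, the largest transcript lay above the heads in all pedicels in 4.51% in males and in 1.87% in females. The rule held in males taken alone in 129 of the genes, in females taken alone in 85, and in each sex alone in 64. These counts rest on the contrast that chose the genes. The difference between the sexes was tested gene by gene as an interaction, given below.

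Between the sexes within a tissue, the pedicel transcript's share was higher in male than in female pedicels in 107 of 167 genes, with a median difference of 5.4 points, from -52 in AAEL019638 to 50.4 in AAEL022948. In heads it was higher in males in 57 genes, with a median difference of -3.55 points, from -43.1 in AAEL024429 to 41.4 in AAEL026297. Few genes separated the sexes completely. In pedicels all males lay above all females in AAEL007509 and AAEL022948 and in 0 genes the reverse held, while 2.53% of the 2727 genes had no overlap there. In heads males lay above females in AAEL007509 and below them in AAEL001088, AAEL001496, AAEL006647, AAEL007444 and AAEL012114, while 2.97% of the 2727 genes had no overlap. Counts of 2 and 6 among 167 genes were near these backgrounds.

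AAEL007509 differed by sex in the same direction in both tissues. Its RA held 61.4, 79.0, 66.5, 79.2 and 58.6% in male pedicels, against 35.8, 41.2, 28.1, 36.1 and 5.64% in female pedicels. In heads RA held 54.1, 65.8, 56.3, 66.5 and 48.3% in males, against 25.8, 38.3, 36.7, 18.9 and 15.9% in females. RA was the larger transcript in all 5 male pedicels, in male heads 1 to 4 and in no female library. The leading transcript thus mostly followed sex, and the gene met the rule in neither sex taken alone. The usage test of edgeR did not call it, with adjusted p-values of 0.65 in pedicels and 1.0 in heads.

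AAEL022948 had RB at 100, 89.2, 100, 100 and 100% in male pedicels, against 43.7, 70.5, 46.5, 76.5 and 0% in female pedicels, with an adjusted p of 0.06 by edgeR. The lowest male library was male pedicel 2. The gene itself was at 7.71 ± 5.15 CPM in male and 20 ± 8.46 CPM in female pedicels, so few counts stand behind the male shares.

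Among the genes that separated the sexes in heads, AAEL001088 had RB at 2.59, 27.8, 13.9, 15.7 and 14.2% in male heads, against 44.9, 46.1, 49.6, 65.7 and 60.1% in female heads. All males were well below all females, and the adjusted p by edgeR was 0.22. AAEL012114, with RA at 28.9, 32.9, 25.6, 26.0 and 24.0% in male heads against 48.7, 44.8, 49.1, 46.8 and 59.2% in female heads, had an adjusted p of 1.0 by edgeR, as did AAEL001496 and AAEL007444.

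Transcript usage was tested across 3387 genes with edgeR's diffSpliceDGE, in which Simes' method joins the transcripts of a gene, with calls made at adjusted p-values under 0.05. All 167 switching genes were among those tested. For sex in the pedicel 1 switching gene was called (0.599%, against a background of 1.39%), for sex in the head 1 (0.599%, against 0.62%), and for the interaction of sex and tissue 2 (1.2%, against 0.915%). At an unadjusted p under 0.05 there were 9, 7 and 8 switching genes in the same order (5.39, 4.19 and 4.79%), against 10.4, 7.35 and 9.74% of all genes tested. These shares were near the background or below it. The tissue contrasts, which the rule used, called 7 switching genes in males (4.19%, background 3.66%) and 4 in females (2.4%, background 1.71%), and nothing is read from them. With groups compared alone the counts for sex were 0 in pedicels and 0 in heads, against backgrounds of 0.548 and 0.284%, and with limma-voom they were 7 and 8 (4.19 and 4.79% of the switching genes), where limma-voom called 3.81 and 1.92% of all 3387 genes. Without male pedicel 2 the count in pedicels was 3, and without female pedicel 3 it was 2.

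AAEL006647 was the gene called for sex in the head. The per-library values given above put its RB at 5.53 ± 3.44% in male and 22.0 ± 7.97% in female heads (SD, n = 5 each), a difference of -16.5 points with no overlap and an adjusted p of 0.017 by edgeR. Female head 1, at 35.9%, stood apart from the other 4. Without it the difference was -13.0 points with an adjusted p of 0.13, and the call was also lost without male head 1, 4 or 5 (0.12 to 0.16), without a low-count filter (0.071), with library totals (0.08) and with the groups compared alone (1.0). In pedicels RB was at 53.3 ± 12% in males and 75.9 ± 4.43% in females, with an adjusted p of 0.54 by edgeR.

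AAEL006619 was called for sex in the pedicel, with an adjusted p of 0.0057 by edgeR, and for the interaction, with an adjusted p of 0.013. Its pedicel transcript RA held 85.9, 47.2, 79.2, 81.9 and 75% in male pedicels and 26.4, 74.5, 52, 48.8 and 52.3% in female pedicels, against 44.6, 36.8, 41.2, 44.1 and 43.7% in male heads and 43.0, 43.8, 29.5, 37.6 and 41.8% in female heads. RA was higher in 4 of 5 male pedicels than in any female pedicel, and male pedicel 2 was the exception. The sexes differed by 23.0 points in pedicels, and by 20.1 points more in pedicels than in heads. The smallest transcript RC was at 6.95 ± 6.5 CPM in male pedicels and at 0 in all 5 female pedicels, against 3.69 ± 2.70 CPM in male and 8.66 ± 5.41 CPM in female heads. The call in pedicels was lost with the groups compared alone (adjusted p of 1.0 by edgeR), where the filter dropped RC, and the interaction was lost with limma-voom (adjusted p of 0.14).

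AAEL011222 was called for the interaction with an adjusted p of 0.044 by edgeR. Its pedicel transcript RA held 4.00, 60.6, 48.9, 80 and 31.9% in male pedicels and 57.8, 63.5, 56.2, 47.9 and 70.2% in female pedicels, against 38.5, 46.7, 47.8, 57.1 and 43.5% in male heads and 52.8, 34.8, 23.1, 29.4 and 40.6% in female heads. Male pedicel 1 was the lowest of all libraries, and its counts went to RB, which held up to 59.3% in male pedicels. The interaction of -24.7 points became -14.4 points without male pedicel 1, with an adjusted p of 0.13 by edgeR, and over all alternatives the adjusted p ran between 0.008 and 0.26. The call was also lost without any 1 of male pedicels 3 and 5, female pedicels 1, 2, 4 and 5, male heads 1 to 4 and female heads 2 to 5.

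To measure switches in libraries that had no part in their choice, the rule was applied to each sex and the chosen genes were measured in the other. Applied to males it gave 224 genes, 129 of them among the 167. In females 174 of these (77.7%) had a higher mean share of the male-chosen pedicel transcript in pedicels than in heads. The median difference was 25.2 points in males and 9.36 points in females, and 61 genes met the rule in females with the same transcripts. Applied to females it gave 169 genes, 85 of them among the 167. In males 125 of these (74.0%) had a higher mean share of the female-chosen pedicel transcript in pedicels than in heads, with a median difference of 19.3 points in females and 12.3 points in males. Shares did not overlap between the tissues in the sex that took no part in 14 of the 224 genes, measured in females (6.25%), and in 16 of the 169, measured in males (9.47%), against the 1.87% in females and 4.51% in males given above for the largest transcripts of all 2727 genes. In most chosen genes the share was thus higher in pedicels in the other sex. Choosing on shares that vary between libraries favours a smaller median difference there. This was not separated from a difference between the sexes, so nothing is read from the smaller median. The 77.7 and 74.0% have no percent over all genes beside them and are a description. The no-overlap backgrounds use the largest transcript over all libraries, which need not be a chosen one. They also count it only where it lay higher in pedicels, so genes whose largest transcript lay lower there are left out. The chosen genes were measured on a transcript already picked for pedicels. The backgrounds are thus not a like measure, and nothing is read from the gap to them.

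Few of these genes passed a test in the other sex. In an edgeR fit of females alone, 3 of 217 male-chosen genes were called at an adjusted p under 0.05 (1.38%), against 0.94% of the 2767 genes tested. They were AAEL006619, AAEL006647 and AAEL011088. In an edgeR fit of males alone, 4 of 164 female-chosen genes were called (2.44%), against 3.03% of the 2839 genes tested. The pedicel transcript held a higher share in pedicels in 2 of these, AAEL006647 and AAEL011088. For AAEL011088 the pedicel transcript's share was 59.4 points higher in pedicels than in heads in males and 46.9 points in females. For AAEL006647 it was 47.8 points higher in males and 53.9 points in females. AAEL006619 had 31.8 points in males and 11.7 points in females, where the tissues overlapped. The test joins all transcripts of a gene. In AAEL006619 the smallest transcript RC was at 0 CPM in female pedicels and at 8.66 ± 5.41 CPM in female heads. Which transcript gave the call in females was not tested.

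**Figure D4:**
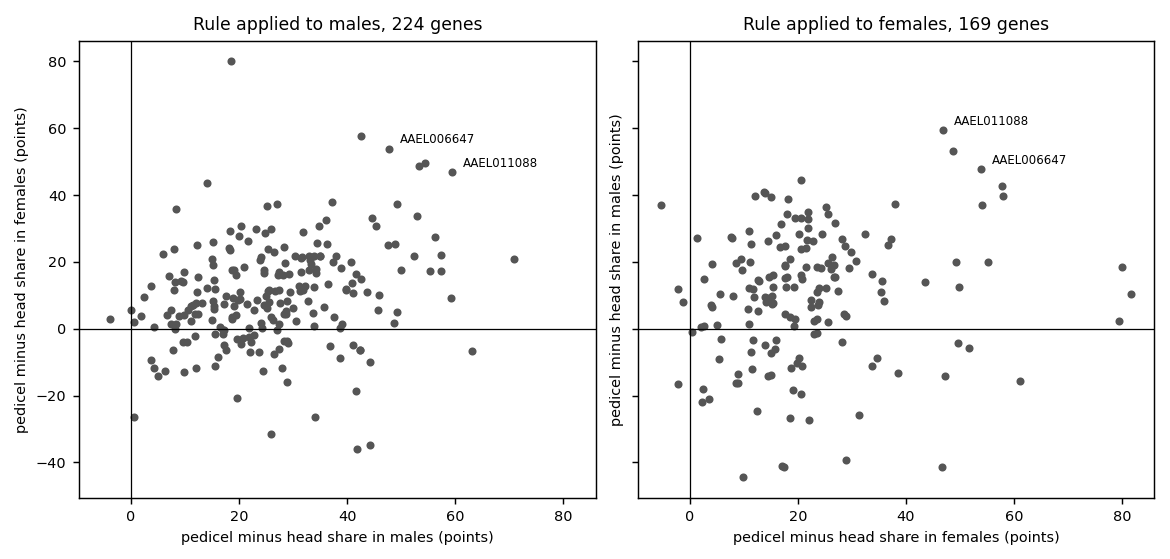
Pedicel minus head share of the pedicel transcript (percentage points, means over 5 libraries a group) in the sex to which the rule was applied (horizontal) and in the other sex (vertical), for the 224 genes chosen in males (left) and the 169 chosen in females (right). Points above the horizontal line, 77.7% and 74.0% of the genes, had a higher share in pedicels in the other sex, and the 2 labelled genes were called in both fits.

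The level of the whole gene, summed over its transcripts, was compared between the sexes with edgeR's quasi-likelihood test across 11381 genes, with levels given as CPM on TMM-scaled library sizes. In pedicels 89 switching genes differed by sex at an adjusted p under 0.05 (53.3%), 55 higher and 34 lower in males. Of all genes tested 39.5% were called, 18.4% higher and 21.2% lower, and of the 2727 genes with several transcripts and 10 CPM, 51.1%. The median log2 fold was 0.11 in switching genes, 0.16 in the 2727 genes with several transcripts and -0.02 over all genes. By this median switching genes leaned to males no more than the 2727 did, and the split of calls into higher and lower was not compared with theirs. Of the called switching genes 24 changed at least 2-fold. With library totals in place of TMM, which moved the median of all genes to 0.35, the 72 calls fell into 65 higher and 7 lower, so the direction of small changes rests on the scaling.

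The largest falls in male pedicels without overlap were those of AAEL005437 and AAEL010473. AAEL005437 was at 2.62, 22.7, 0.485, 2.69 and 1.90 CPM in male pedicels, against 24.2, 29.2, 29.2, 50.6 and 46.5 CPM in female pedicels. All males lay below all females, with male pedicel 2 close to them. The log2 fold was -2.46 (SE 0.567, adjusted p = 0.0019 by edgeR), and it was -4.24 without male pedicel 2. AAEL010473 was at 6.06, 16.8, 7.97, 8.62 and 6.99 CPM in male pedicels, against 47.3, 27.2, 26.6, 41.7 and 50.3 CPM in female pedicels. Male pedicel 2 was again the highest male library, and the log2 fold was -2.04 (SE 0.241, adjusted p = 2.9e-06 by edgeR).

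AAEL002390 and AAEL022078 had the largest rises in male pedicels. AAEL002390 was at 90.7, 51.2, 102, 92.9 and 87.6 CPM in male pedicels, against 24.2, 20.6, 22.4, 29.4 and 19.9 CPM in female pedicels, with a log2 fold of 1.86 (SE 0.19, adjusted p = 5.5e-07 by edgeR). The sexes stood far apart even at male pedicel 2, the lowest male library. AAEL022078 was at 30.3, 20.2, 30.6, 36.2 and 40.3 CPM in male pedicels, against 4.93, 9.64, 8.04, 12 and 10.8 CPM in female pedicels, with a log2 fold of 1.80 (SE 0.221, adjusted p = 4.4e-06 by edgeR).

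In heads 11 switching genes differed by sex in level (6.59%), 4 higher and 7 lower in males, against 7.86% of all genes (1.12% higher and 6.73% lower) and 6.42% of the 2727. Without any 1 of 8 head libraries (male heads 1, 3, 4 and 5, female heads 1, 2, 4 and 5) the count was 7, and without female head 3 it was 21. With DESeq2 16 were called, 9 higher and 7 lower, with library totals 8, 5 higher and 3 lower, and without a low-count filter 8, 2 higher and 6 lower.

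AAEL019441 had the widest gap in heads. It was at 9.32, 9.98, 9.15, 8.96 and 8.71 CPM in male heads, against 61.1, 30.8, 48.8, 63.2 and 53.1 CPM in female heads, with a log2 fold of -2.48 (SE 0.369, adjusted p = 0.00015 by edgeR). The male heads were nearly alike and lay far below every female head. AAEL014274 was at 8.57, 8.29, 8.60, 9.90 and 7.30 CPM in male heads, against 19.0, 14.9, 21.0, 21.0 and 15.9 CPM in female heads, with a log2 fold of -1.11 (SE 0.242, adjusted p = 0.0053 by edgeR).

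AAEL022078, also higher in male pedicels, was at 16.9, 12.9, 14.1, 17.6 and 22.4 CPM in male heads, against 6.64, 7.64, 6.44, 6.83 and 5.02 CPM in female heads, with a log2 fold of 1.37 (SE 0.218, adjusted p = 0.00027 by edgeR). It rose in males in both tissues. AAEL013402 was at 40.8, 34.8, 36.9, 35.6 and 37.3 CPM in male heads, against 19.0, 13.2, 19.5, 17.2 and 14.9 CPM in female heads, with a log2 fold of 1.14 (SE 0.197, adjusted p = 0.00059 by edgeR).

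Gene levels in pedicels and heads share the rule's contrast and its minimum of 10 CPM in both tissues, so they are described with no reading of the calls. In males 94 switching genes were called (56.3%), 40 higher and 54 lower in pedicels, against 51.0% of all genes (26.7% higher and 24.3% lower). In females 86 were called (51.5%), 24 higher and 62 lower, against 35.4% of all genes (18.9% higher and 16.5% lower). Of the 2727 genes with several transcripts that met the same minimum, 57.5% were called in males and 45.4% in females. Their median log2 fold was -0.0752 in males and -0.205 in females, against -0.0371 and -0.174 in switching genes. In both sexes 60 genes were called, 17 higher and 41 lower in pedicels and 2 in opposite directions, 34 were called in males only, 26 in females only and 47 in neither. With library totals the split was 15 higher and 48 lower in males, and 5 higher and 81 lower in females, with the median log2 fold of all genes at -0.12 in males and -0.43 in females.

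AAEL013612 had the highest log2 fold in males. It was at 410, 228, 348, 387 and 386 CPM in male pedicels and 102, 142, 93.5, 135 and 87.4 CPM in female pedicels, against 12.2, 18.3, 11.5, 19.8 and 16.3 CPM in male heads and 28.4, 16.3, 12.2, 37.8 and 18.2 CPM in female heads. The log2 fold of pedicel over head was 4.49 (SE 0.293) in males and 2.31 (SE 0.267) in females. Pedicels were above heads in both sexes, and male pedicels were above female ones.

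AAEL011088, the clearest switch, had a log2 fold of 3.31 (SE 0.159) in males, with 681, 360, 573, 522 and 562 CPM in male pedicels against 49.5, 63.2, 53.4, 56.6 and 50 CPM in male heads. Male pedicel 2, with a higher level of head-typical genes than the other 4, was the lowest of the male pedicels in this gene as in AAEL013612. AAEL006647 had a log2 fold of 2.47 (SE 0.163) in females, with 254, 506, 283, 258 and 266 CPM in female pedicels against 54.9, 61.9, 52, 53.3 and 60 CPM in female heads.

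Lower in pedicels were AAEL005437 and AAEL022948 in males and AAEL008032 and AAEL000704 in females. The log2 fold of pedicel over head was -3.30 (SE 0.574) for AAEL005437, whose male heads were at 56.3 to 72.5 CPM, and it was -5.08 without male pedicel 2. For AAEL022948 it was -2.47 (SE 0.345), with 4.66, 16.6, 4.33, 5.11 and 7.89 CPM in male pedicels against 46.0, 35.0, 46.8, 43.9 and 48.4 CPM in male heads. In females AAEL008032 had a log2 fold of -1.50 (SE 0.316), with 39.4, 18.1, 38, 35.0 and 26.1 CPM in pedicels against 94.3, 88.0, 97.8, 81.5 and 80.2 CPM in heads. AAEL000704 had -1.40 (SE 0.292), with 92.0, 38.9, 112, 168 and 167 CPM in female pedicels against 291, 294, 406, 272 and 264 CPM in female heads. No library overlapped between the tissues in these 4 comparisons.

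**Figure D5:**
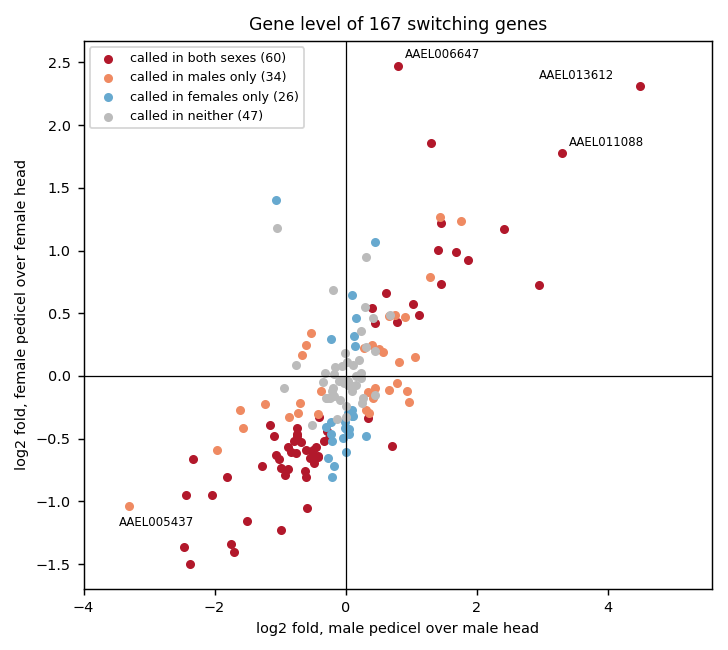
Log2 fold of pedicel over head for the level of each switching gene (summed over its transcripts) in males (horizontal) and in females (vertical), coloured by the sexes in which edgeR called it at an adjusted p under 0.05. Of the 60 genes called in both sexes, 17 lie in the upper right, 41 in the lower left and 2 in opposite quadrants.

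The tissue difference in gene level depended on sex in 28 switching genes (16.8%, against 11.9% of all genes tested and 18.6% of the 2727) in edgeR's interaction test, 18 with a larger pedicel over head fold in males and 10 with a smaller one, against 6.46% and 5.42% of all genes. The count was 18 without male pedicel 1, 45 without male pedicel 2, 9 with library totals (6 and 3) and 42 with DESeq2 (30 and 12). AAEL002390 and AAEL013612 led the first kind. For AAEL002390, whose pedicel values are given above, heads were at 12, 8.79, 10.8, 13.1 and 9.85 CPM in males and 14.1, 12.9, 20, 13.5 and 9.82 CPM in females. Its interaction was 2.23 on the log2 scale (SE 0.269, adjusted p = 4.1e-05 by edgeR), and that of AAEL013612 was 2.18 (SE 0.368, adjusted p = 0.00092 by edgeR). In both genes the sexes were far apart in pedicels and overlapped in heads.

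AAEL019638 and AAEL011253 led the second kind, at low levels. AAEL019638 was at 3.49, 4.07, 8.14, 18.2 and 4.74 CPM in male pedicels and 5.79, 7.37, 30.1, 35.4 and 23.8 CPM in female pedicels, against 18.3, 8.62, 20.4, 16.9 and 10.6 CPM in male heads and 6.76, 6.72, 11.2, 6.79 and 6.76 CPM in female heads. Pedicels were mostly below heads in males and mostly above them in females, and the interaction was -2.46 on the log2 scale (SE 0.686, adjusted p = 0.025 by edgeR). The call was lost without female pedicel 4, male pedicel 1 or male pedicel 5 (adjusted p of 0.052 to 0.054 by edgeR). AAEL011253 was at 5.59, 5.42, 17.7, 28.1 and 8.01 CPM in male pedicels and 10.3, 7, 28.9, 27.2 and 19.7 CPM in female pedicels, against 34.3, 14.2, 34.3, 23.3 and 20.8 CPM in male heads and 6.53, 5.69, 17.6, 5.03 and 5.61 CPM in female heads. It had an interaction of -2.22 (SE 0.699, adjusted p = 0.045 by edgeR), which missed the threshold in 14 of the other fits, with an adjusted p of up to 0.088. In both genes the higher values among pedicels were mostly those of male pedicels 3 and 4 and female pedicels 3, 4 and 5, the libraries with over 20% of identical copies, and their part in the result was not tested. The 14 fits were those without male pedicel 1 or 5, female pedicel 3, 4 or 5, male head 1, 3, 4 or 5, female head 1, 2, 4 or 5, and the one with no low-count filter.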

How the data were processed

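RNA sequencing libraries of pedicels and heads were grouped by sex and tissue from the labels. Per the submitters' processing notes, tools used were FastQC, HISAT2 and featureCounts; tool versions, genome build and annotation were not given in the sources used here. A table of unscaled estimated counts per transcript was deposited by the authors, and all its columns matched a library. Many values carry fractions, and the step that gave them was not given in those sources.

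Estimated counts were rounded to whole numbers for the tests and used as deposited for shares. Transcripts were grouped by gene ID, and CPM for the choice of genes used library totals. The genes and lists were chosen with earlier results of these data known, and 0 IDs could be matched to names, so lists of named genes and sequences were not used here. Named genes are the 6 with the largest swing, the nearest on each side of the limits, and up to 2 called genes in each direction per contrast (for gene levels without overlap between the groups, save the interaction). AAEL007444, AAEL001496, AAEL004212, AAEL001378, AAEL007509, AAEL022948, AAEL001088 and AAEL012114 were chosen for their lack of overlap after their values were seen.

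All 20 libraries entered 1 edgeR 4.0.16 quasi-likelihood fit (glmQLFit, robust) in R 4.3.3 with TMM factors, filterByExpr and a mean per group. Gene levels were tested with glmQLFTest over 11381 genes and transcript usage with diffSpliceDGE over 11544 transcripts of 3387 genes, with Benjamini-Hochberg adjustment over all of them. SE is the absolute log2 fold over the square root of F. The scripts were tested on simulated data. Head-typical genes are the 50 genes with at least 50 CPM in every head, a log2 fold between male and female heads of under 0.5 in size and the lowest minimum in pedicels relative to heads. Alternatives were other scalings and filters, DESeq2 1.42.0, limma-voom (limma 3.58.1), an F test of usage, fits of the compared groups alone, a replicate block, and leaving out each library. Depth was 5060010 to 9404311 estimated counts per library, so shares of genes near 10 CPM rest on few counts, least in the smallest library (male head 2).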

Additional observations from a re-analysis of the deposited data

Results flagged for a closer look

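In 13 of 96 groups of 5 libraries 1 value lay far from the other 4 by Dixon's test, which chance alone gives in about 1 group in 20. Of these, 5 were in male pedicel 2: AAEL006619 had a share of its pedicel transcript of 47.2% there, AAEL005437 was at 22.7 CPM, AAEL010473 at 16.8 CPM, AAEL002390 at 51.2 CPM and AAEL008032 at 49.5 CPM. In that library the 50 head-typical genes stood at 36.6% of their level in heads, against 4.34 to 5.64% in the other male pedicels, and the part this plays was not tested.

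In heads, AAEL006647 had a share of 35.9% in female head 1, AAEL002321 a share of 10.8% in male head 5 and of 21.4% in female head 5, and AAEL008032 was at 98.6 CPM in male head 2. Female head 3 was the highest of its group in AAEL000704 (406 CPM), AAEL019638 (11.2 CPM) and AAEL011253 (17.6 CPM). In female pedicel 2 AAEL006647 was at 506 CPM.

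The effect of tissue differed between the sexes, by the interaction term, in 2 switching genes for transcript usage and in 28 for gene level.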

How the results depend on the processing

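The number of switching genes was 23 with a minimum share of 60% and 312 with 40%, and without each library in turn it ran between 157 and 181, with 92 of the 167 genes kept in every such run. It was 231 and 121 with minimums of 5 and 20 CPM, and 159 from the mean of the libraries' shares. Without the pedicels with over 20% of identical copies, an alternative chosen after seeing the data, it was 207.

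Usage calls among switching genes depended on the setting. For sex in the pedicel they were 2 with RLE factors, 4 with the gene-level F test, 0 with the groups compared alone and 7 with limma-voom, and without 1 library 1 to 3. For sex in the head they were 2, 0 and 8 with the F test, the groups alone and limma-voom, 0 with library totals, 0 without a filter, and without 1 library 0 to 1. For the interaction they were 1 to 3 without 1 library. The cause was not tested. Gene level calls for sex in the head were 25 with the groups compared alone (14 higher and 11 lower), and without 1 library 7 to 21. For the interaction they were 9 with library totals, and without 1 library 18 to 45. For sex in the pedicel they were 62 with the groups compared alone, 43 higher and 19 lower.

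The labels give no meaning to the replicate numbers and not every same-number pair correlated, so libraries were treated as unpaired, although the data hint at shared numbers: 18 of 30 pairs with the same number had a correlation of residuals over 0.1 (range -0.0864 to 0.414), and 14 of 30 correlated best with their own number. With the replicate block the usage calls were 1 for sex in the pedicel, 1 in the head and 0 for the interaction (adjusted p by edgeR of 0.076 for AAEL006619 and 0.15 for AAEL011222), and the gene level calls were 94, 16, 108 (tissue in males), 94 (tissue in females) and 39. No direction of a named gene was reversed in the alternatives run. Depth limits shares most in genes near 10 CPM, and shares are exact only as far as the deposited estimates are.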
